A study of Mus musculus with 12 samples.

Results

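The histone genes of mouse megakaryocytes were compared between dexamethasone, a synthetic glucocorticoid, and its vehicle. Histone genes were taken as the array probe sets that carry exactly 1 gene symbol, with that symbol in the Hist1 to Hist4, H1f, H2af, H3f, H2ac, H2bc, H3c or H4c series and without a pseudogene suffix. This gave 40 genes on 41 probe sets, out of 30138 named genes, and 38 of the 40 were among the 24262 genes that entered the test. By the labels the cells were megakaryocytes grown from bone marrow hematopoietic stem cells of male C57BL/6 mice, with no age stated in the labels. They spent 3 days in thrombopoietin at 100 ng per ml and a night in medium with 10% charcoal-stripped serum, and were purified on an albumin gradient on day 4. Each of 6 cultures was divided and received 100 nM dexamethasone or vehicle for 6 h, which gave 6 arrays in each group, paired by culture. The labels name no transgene or deletion, and the drug is their only difference between the groups. Both are bulk cultures, in which fewer cells of a type and less RNA per cell cannot be told apart. The 6 cultures are numbered here by replicate.

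Histones are the proteins around which DNA is wound. Pairs of H2A, H2B, H3 and H4 form the nucleosome core, and the linker histone H1 closes the DNA where it enters and leaves. Most histone genes lie in clusters and are replication-dependent: their mRNAs rise in S phase, end in a stem-loop instead of a poly(A) tail, and are degraded when DNA synthesis stops. Variant histones such as H2A.X, H2A.Z and H3.3 are made outside these limits, many from polyadenylated mRNAs. Megakaryocytes replicate their genome repeatedly without dividing and become polyploid.

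Each array gave 1 log2 value per probe set, and array medians lay between 5.57 and 5.67. The median of 5222 negative control probe sets, used below as the background level, lay between 6.15 and 6.39 on the 12 arrays. All 7 tested megakaryocyte markers, among them the platelet chemokine gene Pf4 and the integrin gene Itga2b, lay above it on all 12 arrays. Of these markers 1 rose in dexamethasone, Gp9 by 0.44 on the log2 scale in 6 of 6 cultures, and 0 fell. The neutrophil genes S100a8 and S100a9 fell in dexamethasone by 0.51 and 0.77 on the log2 scale, and the part of such cells in the histone values was not tested. The log2 of the summed linear signals of the 7 tested neutrophil markers ran from 11.72 to 14.53 in vehicle and from 10.31 to 13.84 in dexamethasone. The brightest probe sets weigh most in such a sum. Of these 7, 4 fell, 3 lay above background on all arrays, and Elane lay below it on all arrays. Other markers rose with the histone genes: the mast cell gene Cpa3 by 0.64 and the progenitor genes Kit by 0.33 and Flt3 by 0.44, each in 6 of 6 cultures, Flt3 below background on all arrays. The mast cell gene Mcpt8, the lymphocyte gene Ighm and the stem cell gene Meis1 fell by 0.28, 0.37 and 0.26, and the part of these cells was not tested either. Ighm lay above background on 3 of 6 vehicle and 0 of 6 dexamethasone arrays. Among 4 lymphocyte markers tested 0 rose and 1 fell, and Nkg7 changed by 0.26 without passing. Of 4 mast cell and basophil markers tested 1 rose and 1 fell. The log2 of their summed signals was 8.71 to 9.01 in vehicle and 8.91 to 9.42 in dexamethasone. Of 4 stem and progenitor markers 2 rose and 1 fell, and the log2 of their summed signals was 13.98 to 14.27 and 13.89 to 14.21. The 5 monocyte and macrophage markers tested and the 2 erythroid ones gave 0 higher and 0 lower. The monocyte and macrophage genes Lyz2 and Ly6c2 lay above background on all 12 arrays, and 2 of the 5 lay above it on none. The part of such cells in the histone values was not tested. Levels are not compared between genes, since each probe set has its own response.

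The promoters of the 4 replication-dependent H1 genes come first, because 3 of these genes rose. The bases just before each gene start are given 5′ to 3′ on the gene's own strand, from RefSeq on build GRCm38.p6. Capitals mark AAACACA, the H1 box found upstream of H1 genes, CCAAT or its reverse complement ATTGG, and TATAAA, on either strand. Hist1h1a lies at chr13:23763543-23763667 on the plus strand, Hist1h1b at chr13:21780626-21780750 on the minus strand, Hist1h1c at chr13:23738682-23738806 on the plus strand and Hist1h1d at chr13:23554907-23555031 on the plus strand.
Hist1h1a: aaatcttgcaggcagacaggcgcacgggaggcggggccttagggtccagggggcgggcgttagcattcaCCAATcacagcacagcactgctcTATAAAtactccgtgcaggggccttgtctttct
Hist1h1b: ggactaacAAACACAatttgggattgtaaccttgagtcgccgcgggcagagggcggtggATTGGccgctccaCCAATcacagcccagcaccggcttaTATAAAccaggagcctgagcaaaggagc
Hist1h1c: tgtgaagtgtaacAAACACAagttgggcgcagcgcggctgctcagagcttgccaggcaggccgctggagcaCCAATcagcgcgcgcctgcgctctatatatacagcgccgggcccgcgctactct
Hist1h1d: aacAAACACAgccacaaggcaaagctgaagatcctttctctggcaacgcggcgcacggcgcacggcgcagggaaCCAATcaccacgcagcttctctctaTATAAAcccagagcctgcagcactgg

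All 4 windows hold CCAAT between 51 and 56 bases before the start. The H1 box lies 112 to 122 bases before the start in 3 of them, and these letters are not in the window of Hist1h1a. TATAAA lies 26 to 33 bases before the start in 3 of them, Hist1h1c being the exception.

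After dexamethasone 8 of 38 tested histone genes were higher and 0 were lower, while 30 did not pass an adjusted p of 0.05 in limma. Among all genes tested 7.39% were higher and 4.56% were lower, so the share of histone genes that rose, 21.1%, lay above the background. At an unadjusted p under 0.05, limma gave 12 higher and 2 lower histone genes. The share of all genes at an unadjusted p under 0.05 was not counted. Counts at that threshold, here and below, therefore have no background beside them. The median change of the 38 was 0.08 on the log2 scale, against -0.01 over all genes tested, and 27 of the 38 changes were above 0, against 45.7% of all genes. The rises were small, from 1.16-fold to 1.59-fold. Of the 38, 7 were higher in all 6 cultures, against a background of 11.2%, and 2 were lower in all 6, against 8.32%. This excess depended on single cultures and on the pairing. Without culture 3 the count was 2 (5.26%, against 4.8% of all genes), and without the culture pairing it was 3 (7.89%, against 6.32%), both near the background. Without culture 4 it was 3 (7.89%, against 4.86%). It was 4 (10.5%) after quantile normalization, without culture 2 and without culture 6, against 5.84%, 5.19% and 5.66% of all genes. It was 0 when all 72688 probe sets were fitted together, a setting in which 1.92% of all probe sets were higher and 0.879% lower. In that fit limma gave 11 higher and 1 lower at an unadjusted p under 0.05, and the lowest adjusted p of a histone gene was 0.0614. Hist1h1a and H2afx passed the threshold whichever single culture was left out.

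The 8 genes were of several families. They were the linker histone genes Hist1h1a, Hist1h1b and Hist1h1c, the H2A genes Hist1h2aj, Hist1h2ap and Hist2h2aa1, the H3 gene Hist1h3g and the variant gene H2afx. Of 25 replication-dependent genes tested, 7 rose, 0 fell and 18 did not pass, with a median change of 0.14. At an unadjusted p under 0.05 limma gave 9 higher and 0 lower among these 25. Of 9 variant genes 1 rose and 8 did not pass, with a median of -0.04, and at an unadjusted p under 0.05 limma gave 3 higher and 2 lower. The difference between the 2 classes was not tested.

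**Figure D1:**
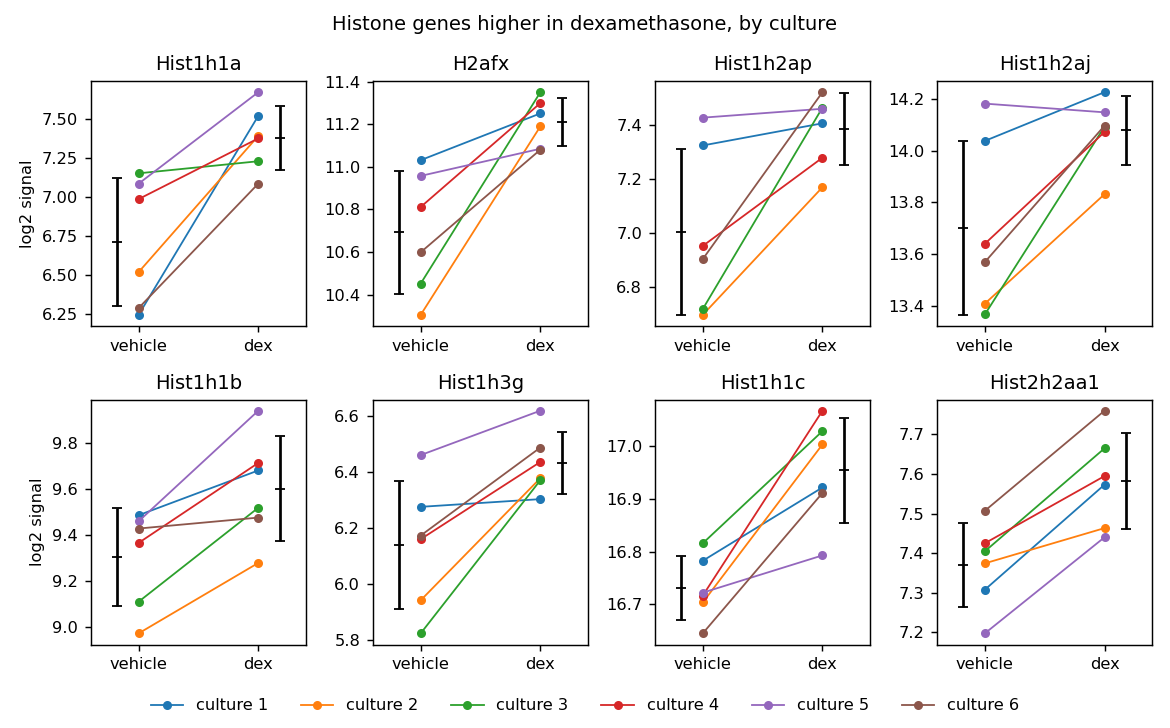
Log2 signal of the 8 histone genes that rose, in vehicle and after 6 h of dexamethasone (dex), with each culture's 2 arrays joined by a line and the mean and SD (n = 6) beside them in black. Each panel has its own vertical axis. All lines rise except that of culture 5 in Hist1h2aj, and the groups are fully apart only in H2afx.

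The largest change among tested histone genes on all 6 cultures was in the linker histone gene Hist1h1a, at 0.67, ahead of H2afx at 0.52. Without culture 1 the order turned, with 0.54 for Hist1h1a and 0.58 for H2afx. Hist1h1a, which encodes H1.1 (H1f1 in RefSeq), was at 6.25, 6.52, 7.15, 6.99, 7.09 and 6.29 in vehicle cultures 1 to 6. It was at 7.52, 7.39, 7.23, 7.38, 7.67 and 7.09 in the same cultures under dexamethasone. It was higher in 6 of 6 cultures, most in culture 1 and least in culture 3, and the groups overlapped. The change was 0.67 (SE 0.13), or 1.59-fold, with an adjusted p of 0.0134 by limma. Its vehicle level lay near background, above the negative control median on 5 of 6 arrays, against 6 of 6 in dexamethasone.

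Hist1h1b, which encodes H1.5 (H1f5), was at 9.49, 8.97, 9.11, 9.37, 9.46 and 9.43 in vehicle. It was at 9.68, 9.28, 9.52, 9.71, 9.94 and 9.48 in dexamethasone. All 6 cultures rose, and the dexamethasone arrays of cultures 2 and 6 lay within the vehicle range. The change was 0.30 (SE 0.06), with an adjusted p of 0.0153 by limma.

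Hist1h1c, which encodes H1.2 (H1f2), is a linker histone gene known to give polyadenylated mRNA as well in differentiated cells. It was at 16.78, 16.70, 16.82, 16.72, 16.72 and 16.64 in vehicle and at 16.92, 17.003, 17.03, 17.07, 16.79 and 16.91 in dexamethasone. Only the dexamethasone array of culture 5 lay within the vehicle range. The change was 0.22 (SE 0.05) with an adjusted p of 0.022 by limma.

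Hist1h1d, which encodes H1.3 (H1f3), was at 7.55 ± 0.09 in vehicle and 7.66 ± 0.15 in dexamethasone (SD, n = 6), a change of 0.11 (SE 0.07) with an adjusted p of 0.395 by limma. Its promoter has the same 3 motifs as that of Hist1h1b. The variant linker gene H1fx lay below background on all 12 arrays, at 5.41 ± 0.20 and 5.18 ± 0.05, and was lower in 6 of 6 cultures with an adjusted p of 0.0966. Of the germ line linker genes, H1f7 of spermatids lay below background on all arrays with a change of -0.07. The testis gene Hist1h1t and the oocyte gene H1foo were below the filter and were not tested.

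H2A genes made up the largest family, with 18 members, of which 4 rose and 14 did not pass. Among the 9 replication-dependent ones, Hist1h2aj, Hist1h2ap and Hist2h2aa1 rose. Hist1h2aj was at 14.04, 13.41, 13.37, 13.64, 14.18 and 13.57 in vehicle and at 14.23, 13.83, 14.09, 14.07, 14.15 and 14.10 in dexamethasone. The 4 cultures that were low in vehicle rose most, and culture 5, the highest in vehicle, was lower by 0.03. The vehicle value is part of the change, so a low vehicle array enlarges it by arithmetic. A dependence of the response on the vehicle level was not tested. The change was 0.38 (SE 0.09), with an adjusted p of 0.0289 by limma.

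Hist1h2ap (H2ac24) again had cultures 5 and 1 highest in vehicle. It was at 7.33, 6.70, 6.72, 6.95, 7.43 and 6.90 in vehicle and at 7.41, 7.17, 7.47, 7.28, 7.46 and 7.52 in dexamethasone. These 2 cultures moved least, with the same limit that the vehicle value is part of the change, and all 6 rose. The change was 0.38 (SE 0.10), with an adjusted p of 0.0365 by limma. The coding sequences of H2A genes are nearly identical, so their probe sets may read each other's mRNA.

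Hist2h2aa1 (H2ac18), of the cluster on chromosome 3, was at 7.31, 7.37, 7.40, 7.42, 7.20 and 7.51 in vehicle and at 7.57, 7.46, 7.66, 7.59, 7.44 and 7.76 in dexamethasone. Each culture rose by between 0.09 and 0.27, so the change was small and even, at 0.21 (SE 0.04), with an adjusted p of 0.0153 by limma. Its near-identical neighbour Hist2h2aa2 was at 7.61 ± 0.18 and 7.75 ± 0.07, with an adjusted p of 0.282.

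The other 5 replication-dependent H2A genes did not pass the threshold either. Hist1h2af (H2ac10) changed by 0.25 (SE 0.07) with an adjusted p of 0.0564, and it was higher in 5 of 6 cultures. Hist1h2ak changed by 0.35 (SE 0.14), with a spread from -0.14 in culture 5 to 1.05 in culture 6. H2ac20, Hist1h2ah and Hist2h2ab changed by 0.09, 0.04 and -0.01. In Hist1h2af, Hist1h2aj, Hist1h2ak and Hist1h2ap alike, vehicle arrays of cultures 1 and 5 were the highest, and the SD was larger in vehicle (0.25, 0.34, 0.46 and 0.31) than in dexamethasone (0.14, 0.13, 0.14 and 0.13).

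H2afx was the variant gene that rose. It encodes H2A.X, which is phosphorylated around DNA double-strand breaks. Vehicle cultures 1 to 6 were at 11.03, 10.30, 10.45, 10.81, 10.96 and 10.60, and dexamethasone cultures at 11.25, 11.19, 11.35, 11.30, 11.09 and 11.08. The lowest dexamethasone array lay above the highest vehicle array, and no other tested histone gene had groups apart, against 4.11% of all genes with dexamethasone arrays all above. The change was 0.52 (SE 0.11), or 1.43-fold, with an adjusted p of 0.0154 by limma, and it ranged from 0.13 in culture 5 to 0.90 in culture 3. Dexamethasone values were closer together, with an SD of 0.11 against 0.29 in vehicle.

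The H2A.Z genes stood on either side of 0. H2afz, the main H2A.Z gene, was at 16.93 ± 0.07 and 16.89 ± 0.06, a change of -0.04 (SE 0.04) with an adjusted p of 0.536 by limma. After quantile normalization its change was -0.13 with an adjusted p of 0.0474. H2afv, the second H2A.Z gene, was at 11.64 ± 0.15 and 11.87 ± 0.18, a change of 0.23 (SE 0.07) with an adjusted p of 0.0585 and 5 of 6 cultures higher.

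Of the remaining H2A variants, H2afj, which encodes the senescence-linked H2A.J, changed by 0.15 (SE 0.06) with an adjusted p of 0.136. The macroH2A1 gene H2afy, tied to silent chromatin, was at 8.88 ± 0.11 and 8.85 ± 0.08. Its relatives H2afy2 and H2afy3 lay below background on all 12 arrays, with changes of -0.11 and -0.04. The germ line genes Hist1h2aa and H2afb1 changed by 0.11 and -0.17, H2afb1 from below background on all arrays.

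No H2B gene with its own probe set passed the threshold. Of 8 tested, 0 rose and 0 fell by limma, with 0 at an unadjusted p under 0.05 in either direction. Among all genes tested 7.39% were higher and 4.56% lower, so 0 of 8 is near the background. Their changes ran from -0.20 for Hist1h2bb (SE 0.17) to 0.20 for Hist2h2bb (SE 0.09), which lay below background on all arrays. Hist1h2bb varied most among them, with changes from -0.84 in culture 6 to 0.69 in culture 4. Hist2h2be, of the chromosome 3 cluster and known from olfactory neurons, was at 8.43 ± 0.23 and 8.50 ± 0.16, with an adjusted p of 0.601. The testis gene Hist1h2ba was at 8.59 ± 0.04 and 8.63 ± 0.08.

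Among H3 genes, Hist1h3g (H3c8) rose. Vehicle arrays were at 6.28, 5.94, 5.83, 6.16, 6.46 and 6.17, and dexamethasone arrays at 6.30, 6.38, 6.37, 6.44, 6.62 and 6.49. These values straddle background, with 1 of 6 vehicle and 5 of 6 dexamethasone arrays above it. All 6 cultures rose, culture 1 by 0.03 only, and the change was 0.29 (SE 0.07) with an adjusted p of 0.027 by limma. Hist1h3c and Hist1h3f changed by 0.31 (SE 0.15) and 0.16 (SE 0.09) and did not pass. The H3.3 gene H3f3c was at 16.02 ± 0.10 and 15.94 ± 0.05, with an adjusted p of 0.352. The main H3.3 genes H3f3a and H3f3b had no probe set with a single symbol.

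H4 was the least covered family, since its genes encode the same protein and mostly share probe sets. Hist1h4a was at 7.18 ± 0.22 and 7.21 ± 0.28, with changes from -0.33 to 0.45 between cultures. Hist1h4b lay below background on all 12 arrays, at 5.12 ± 0.09 and 5.16 ± 0.11. Neither passed the threshold, with adjusted p of 0.899 and 0.684 by limma.

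**Figure D2:**
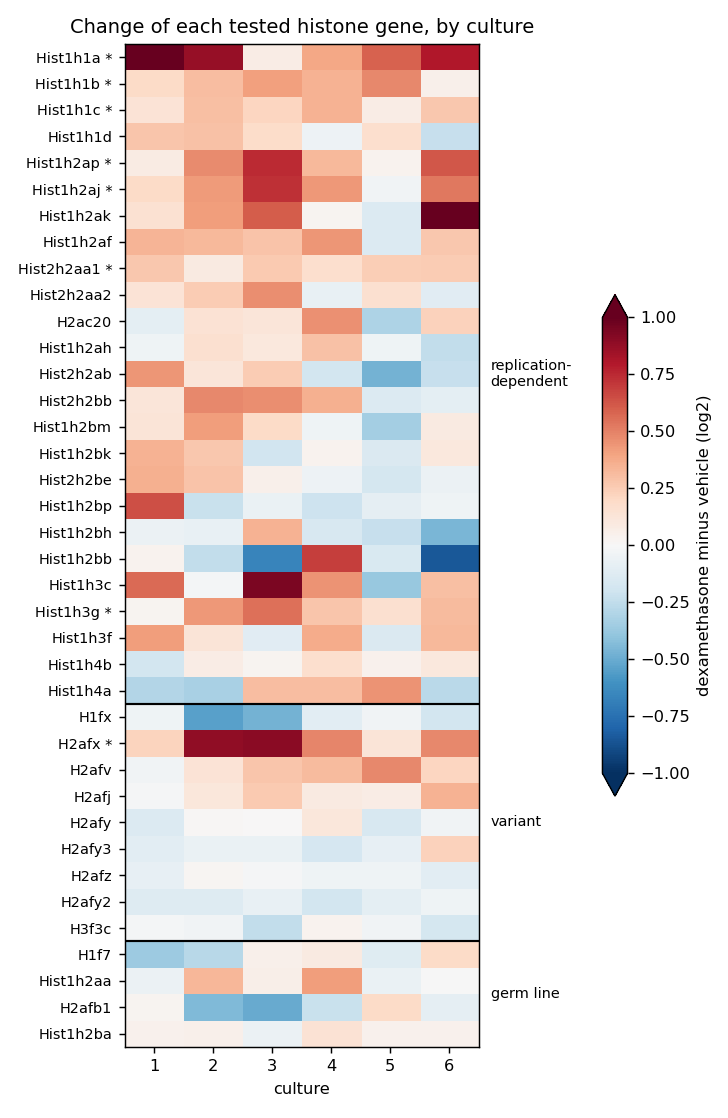
Change (dexamethasone minus vehicle, log2) of each of the 38 tested histone genes (rows) in each of the 6 cultures (columns), with red for higher and blue for lower in dexamethasone and the colour scale ending at 1 and -1. Asterisks mark the 8 genes that rose, black lines separate replication-dependent, variant and germ line genes, and culture 5 holds the most blue among the replication-dependent genes.

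Signal over background differed among the members. Of the 38 tested genes 25 lay above the negative control median on all 12 arrays, 7 on none and 6 on some. Of those 25 genes, 6 rose and 0 fell, against 12.6% higher among the 11926 genes that lay above it on all arrays. Their median change was 0.11, against 0.03 for those genes. The filter, set at the 25th percentile of each array, was met on all 12 arrays by 37 of the 38 genes and by none through 1 group only.

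Median changes differed between cultures. With 1 array per culture and group, a difference in response cannot be told apart from variation between arrays, and it was not tested. The median change of the 25 replication-dependent genes was 0.15, 0.27, 0.25, 0.29, -0.09 and 0.11 in cultures 1 to 6. Cultures 2, 3 and 4 had the largest medians and culture 5 the only one below 0, whereas medians over all genes tested stayed between -0.02 and 0.01. The variant genes had medians from -0.05 to 0.03. The median SD between cultures was 0.19 in vehicle and 0.14 in dexamethasone for tested histone genes, against 0.12 and 0.11 for all genes tested.

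**Figure D3:**
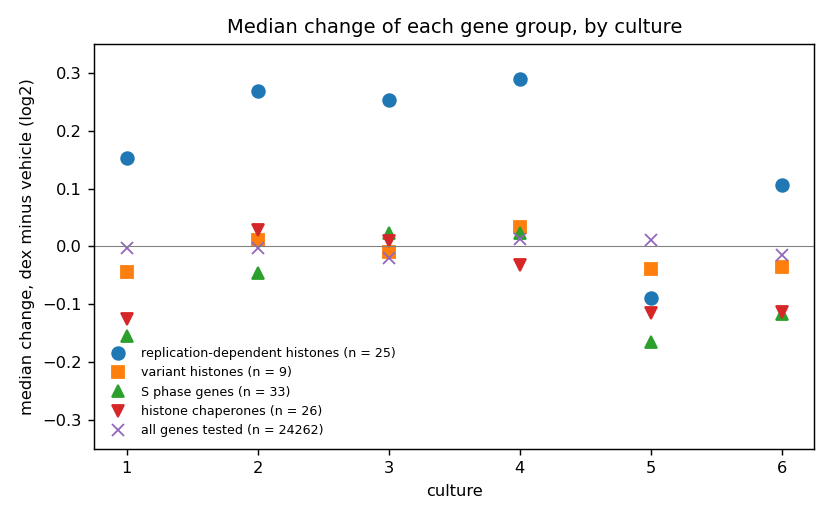
Median change (dexamethasone minus vehicle, log2) in each of the 6 cultures for replication-dependent histone genes, variant histone genes, S phase genes, histone chaperones and all genes tested. The replication-dependent histone medians are above those of the other groups in all cultures but culture 5.

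Many probe sets are assigned by the array's annotation to several histone genes at once. There were 43 such probe sets with at least 1 histone symbol, and 41 passed the filter and were fitted together with the named genes, 26078 features in all. Of these 41, 19 were higher and 0 lower by limma, against 7.19% higher and 4.42% lower among all features. At an unadjusted p under 0.05 limma gave 31 and 0, with no background share at that threshold. Their median change was 0.26 and 39 of the 41 changes were above 0. No gene can be named from them, since each has several symbols, so 19 is not a count of separate genes. They may read the same mRNAs, which was not tested. The same fit gave 8 single-symbol histone genes higher and 0 lower. Without culture 3 the 19 became 11, without culture 6 they became 12, and without the pairing they became 12. With all probe sets fitted they became 9.

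By family, 6 of 11 H4 probe sets, 6 of 10 of H2A, 3 of 9 of H2B and 3 of 9 of H3 were higher, and 1 of 2 with symbols of more than 1 family. The largest change was in an H4 probe set with 13 symbols, at 0.67 (SE 0.09) with an adjusted p of 0.00143 and 6 of 6 cultures higher. Next came an H2A probe set with 10 symbols, at 0.60 (SE 0.11) with an adjusted p of 0.0102. The 2 probe sets that list H3f3a and H3f3b with their copies changed by 0.09 and 0.14 and did not pass. Among probe sets with 1 symbol, 0 of 8 H2B and 0 of 2 H4 genes rose. With 7.39% of all genes higher, counts of 0 in so few genes are near the background. The difference from the probe sets with several symbols was not tested. With all probe sets fitted 0 of the H2B and 3 of the H4 probe sets were higher.

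Genes that act on histones or in S phase were taken as 4 lists. The list of histone transcription and mRNA 3′ end processing genes had 20 tested members, of which 2 rose, 0 fell and 18 did not pass, against 7.39% higher and 4.56% lower among all genes tested, so 2 of 20 is near the background. At an unadjusted p under 0.05 limma gave 3 higher and 1 lower. Hinfp, a transcription factor of histone H4 genes, rose from 10.51 ± 0.17 to 10.88 ± 0.10, a change of 0.37 (SE 0.06) with an adjusted p of 0.00487. Zcchc11, a terminal uridylyltransferase, rose by 0.18 (SE 0.05) with an adjusted p of 0.0363. Slbp, which binds the stem-loop of histone mRNA, changed by 0.07, and Npat and Casp8ap2, which act at histone gene promoters and in processing, by -0.08 and -0.07, all without passing.

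Of 26 histone chaperone and chromatin assembly genes 6 fell, 0 rose and 20 did not pass, with a median change of -0.05 and a background of 4.56% lower and 7.39% higher. Limma gave 1 higher and 9 lower at an unadjusted p under 0.05, again with no background share at that threshold. Anp32e, which removes H2A.Z from chromatin, fell by 0.27 (SE 0.05), and the FACT subunit Supt16 fell by 0.27 (SE 0.05). The acidic chaperone Set fell by 0.24 and the nucleosome assembly gene Nap1l4 fell by 0.23. The 6 became 3 without culture 1, 3 without culture 6 and 3 without the pairing. Asf1a, Asf1b and Nasp, which carry H3 and H4, changed by 0.01, 0.06 and -0.04 and did not pass.

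Of 33 S phase and replication genes 8 fell, 1 rose and 24 did not pass, with a median of -0.07 and the same background of 4.56% lower and 7.39% higher. Mcm2, which fell, is also in the chaperone list and is counted in both. The helicase subunit Mcm6 fell by 0.48 (SE 0.07) and the polymerase gene Pola1 fell by 0.47 (SE 0.05), each in 6 of 6 cultures with adjusted p of 0.0019 and 0.000281. The maintenance DNA methyltransferase gene Dnmt1 fell by 0.28, whereas the repressor gene E2f8 rose by 0.35 (SE 0.06). The 8 that fell became 5 without culture 3, 5 or 6 and 3 without the pairing. The median change of this list was below 0 in cultures 1, 2, 5 and 6 and at 0.02 in cultures 3 and 4. In every culture it lay below the median of the replication-dependent histone genes, although the difference was not tested.

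Of 16 genes of variant exchange and linked functions, 1 rose, 2 fell and 13 did not pass, and with 7.39% higher and 4.56% lower among all genes these few calls are no result about the list. Cenpa, which encodes the centromeric H3 variant and lies outside the symbol series used here, rose from 8.53 ± 0.28 to 8.85 ± 0.23, a change of 0.32 (SE 0.05) with an adjusted p of 0.0028. The remodeller ATPase gene Ruvbl1 fell by 0.55 (SE 0.05), and Prkdc, a kinase that phosphorylates H2A.X, fell by 0.24 (SE 0.05).

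**Figure D4:**
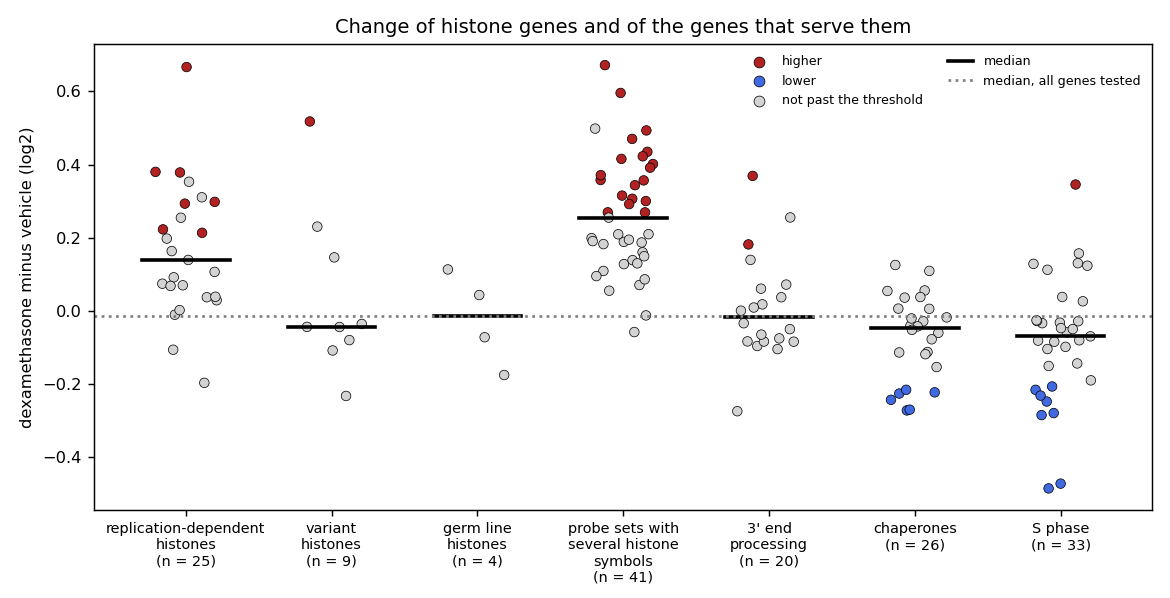
Change (dexamethasone minus vehicle, log2) of each tested gene or probe set in 7 groups, in red where higher, blue where lower and grey where an adjusted p of 0.05 was not passed. Black bars are group medians and the dotted line is the median of all genes tested. Red points lie in the replication-dependent, variant and several-symbol histone groups, with 2 in the 3′ end processing group and 1 among S phase genes. Blue points are 6 chaperones and 8 S phase genes, with Mcm2 in both groups.

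The promoters of 35 of the 40 genes were found in RefSeq, and the 250 bases before the start were searched on both strands. CCAAT was in 21 of 22 replication-dependent promoters, against 34.5% of 27025 promoters of the same length, and in 3 of 7 of the variants. TATAAA was in 8 of the 22 and in 0 of the 7, against 13%. The H1 box AAACACA was in 4 of the 22, 3 of them H1 promoters, against 6.22%. The octamer ATTTGCAT, known from H2B promoters, was in 4 of 6 replication-dependent H2B promoters and in none of the 4 H1 promoters, against 1.61%.

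CCAAT was in all 6 replication-dependent promoters of genes that rose and in 15 of 16 of those that did not pass. H2afx and Hist1h2aj also rose, but their promoters were not among the 35 and were not searched. The hexamer AGAACA, 1 arm of the glucocorticoid response element, was in 1 of the 6 and in 3 of the 16, against 16.2% of all promoters. The full palindromic element with perfect arms was in 0 of the 35. It was in only 1 of all 27025 promoters, so 0 of 35 carries no information on these genes. A match is a description of these letters and not of binding.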

How the data were processed

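The authors' deposited log2 values of 72688 probe sets on 12 arrays were used as deposited. The labels' protocols state whole-transcript amplification of 50 ng of RNA and biotin labelling, so arrays have 1 colour. How the authors corrected background, normalized and summarized is not stated in the labels. Values ran from 2.07 to 19.93, which was taken as log2. Precision is limited by the 12 arrays.

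The array's annotation table gave 1 symbol to 30604 probe sets and several to 2146. RefSeq numbers linked 39 of the 40 histone symbols to GRCm38.p6, all but Hist1h2aj. Each gene took its probe set with the highest mean. Genes above the 25th percentile of their array on at least 6 arrays were tested with limma 3.58.1 in R 4.3.3 (lmFit, eBayes), culture as block, two-sided, Benjamini-Hochberg over all genes tested. The block follows from the treatment protocol, by which cultures were divided. Deviations from group means correlated at 0.05 to 0.25 in the 6 pairs, over 0.1 in 4. With culture as block, p-values rest on how the dexamethasone minus vehicle difference varied between these cultures. Whether cultures came from separate mice is not stated.

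Members, lists and the naming rule were chosen with earlier results of these data known. All histone genes could be named, with full values for those past the threshold, and of other lists up to 4 called members. Beyond these, a few uncalled genes and the shared gene Mcm2 were named after their values were seen. Fits were tested on simulated data. Alternatives in scaling, filter, block, fit and cultures were tried. The fit with several-symbol probe sets and the view of genes above background were chosen after seeing the data.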

Additional observations from a re-analysis of the deposited data

How the results depend on the processing

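Of 16 other settings, 8 leave the change of the 8 higher histone genes as it is by construction, and in the 8 that move it (scaling or a culture left out) these genes kept their direction. Hist1h1a and H2afx passed the threshold in 15 of 16 settings each, Hist2h2aa1 in 12, Hist1h1b in 11, Hist1h1c and Hist1h3g in 10, Hist1h2aj and Hist1h2ap in 9. The count of 8 higher histone genes became 4 with quantile normalization (with 1 lower, H2afz), 3 with no replicate block and 0 with all probe sets fitted. Without 1 replicate pair it lay between 2 (without culture 3) and 9. The 19 probe sets with several symbols became 12 with no replicate block and 9 with all probe sets fitted, and 11 to 19 without 1 replicate. Among chaperones the 6 lower became 10 with quantile normalization, 3 with array medians centred, 3 with no replicate block and 1 with all probe sets fitted, and 3 to 5 without 1 replicate. The 8 lower S phase genes became 5 with array medians centred, 3 with no replicate block, 5 with the block as a random effect and 2 with all probe sets fitted, and 5 to 7 without 1 replicate. Over all genes, 1794 were higher and 1106 lower. The lower became 1738 with quantile normalization, 726 with array medians centred and 639 with all probe sets fitted. Without 1 replicate the higher ran from 1164 (culture 3 left out) to 1520, with 1179 for culture 4, and the lower from 712 (culture 6) to 853, with 714 for culture 3. The share of calls that were higher was 61.9% in the deposited scale, 44.9% with quantiles equalized and 70.3% with medians equalized. The causes were not tested. Genes near background limit what small changes can show.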
